A study of Caenorhabditis elegans with 15 samples.

Results

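Meiotic chromosomes of the nematode Caenorhabditis elegans are organised by a small set of structural proteins, and 9 of their genes were followed here across 5 strains of young larvae. The genes were him-3, htp-1, htp-2, htp-3, rec-8, syp-1, syp-2, syp-3 and him-8. They were taken by gene symbol from the array annotation and matched 10 of the 22625 probe sets, or 9 of the 17118 genes with a probe set of their own. Only him-3 had more than 1 probe set, and 0 of the 10 was shared with another gene in the annotation. By the RefSeq annotation of assembly WBcel235, him-3, htp-1, htp-2, rec-8 and him-8 lie on chromosome IV, syp-1 and syp-2 on chromosome V, and htp-3 and syp-3 on chromosome I.

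Whole-animal RNA of first-stage larvae was hybridised to 15 Affymetrix arrays, which gave 13 biological samples. The larvae had hatched without food and were then fed bacteria for 6 to 7 h. The wild type was the Bristol N2 strain, with 3 samples. The alg-1 strain VC446 carries alg-1(gk214) on the X chromosome and gave 3 samples. The zfp-1 strain RB774 carries zfp-1(ok554) and gave 2 samples. The rde-4 strain BB11 carries rde-4(ne299) and gave 3 samples. The lin-35 strain MT3033 gave 2 samples and carries lin-35(n745) together with unc-13(e1091), so the effects of these mutations cannot be told apart. In the zfp-1 and lin-35 strains replicate 2 was run on 2 arrays, and their mean was used. ALG-1 is an Argonaute protein of the microRNA pathway, RDE-4 binds double-stranded RNA in RNA interference, ZFP-1 is a chromatin-associated zinc finger protein, and LIN-35 is the worm's only retinoblastoma-family protein. UNC-13 acts in neurotransmitter release.

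In meiosis each chromosome is folded along a protein axis built on cohesin, and the axes of paired homologous chromosomes are then joined along their length by the synaptonemal complex. In C. elegans, HTP-3, HIM-3, HTP-1 and HTP-2 are axis proteins with a HORMA domain, REC-8 is a meiotic cohesin subunit, SYP-1, SYP-2 and SYP-3 form the central region of the synaptonemal complex, and HIM-8 is a zinc finger protein that binds the pairing centre of the X chromosome. These structures are known from the adult germ line, and the germ cell precursors of a first-stage larva have not yet entered meiosis.

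Deposited values are on a log2 scale, so a difference of 1 is a doubling, and a value below 5 is called low here. Levels of different probe sets cannot be set against each other, so each gene is compared with itself between strains. Differences were tested with limma (adjusted p under 0.05) in 1 fit of all 5 groups, over the 8653 genes with a value of 5 or more in at least 2 samples. Of the 9 meiotic genes, 5 were tested. Among them, him-3, htp-1 and syp-1 passed this filter through their lin-35 samples alone, so they had to differ. Their count, their tests and any median that includes them are a description.

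The 9 genes fell into 3 kinds. In the lin-35 strain him-3, syp-1 and htp-1 rose from low values to 5 or more, whereas they were low in every sample of the other 4 strains. The levels of rec-8 and him-8 were 5 or more in all 13 samples and did not pass the test in any comparison. They lay between 5.39 and 6.41, and values this near 5 do not by themselves show expression. The values of htp-2, htp-3, syp-2 and syp-3 stayed below 5 in all 13 samples. Of the 17118 genes, 0.713% had the first pattern, 44.7% the second and 48% the third, so the share of low genes, 4 of the 9, was near that of all genes. Against wild type, 3 of the 5 tested genes were higher in the lin-35 strain and 0 were lower, where 5.19% of all tested genes were higher and 1.47% lower. The median log2 difference was 2.50 over the 5 tested genes and 0.01 over all tested genes. Over all 9 genes, tested or not, it was -0.04, and over all 17118 genes -0.05. In RNA of whole larvae, fewer cells of a type and less RNA per cell cannot be told apart.

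**Figure D1:**
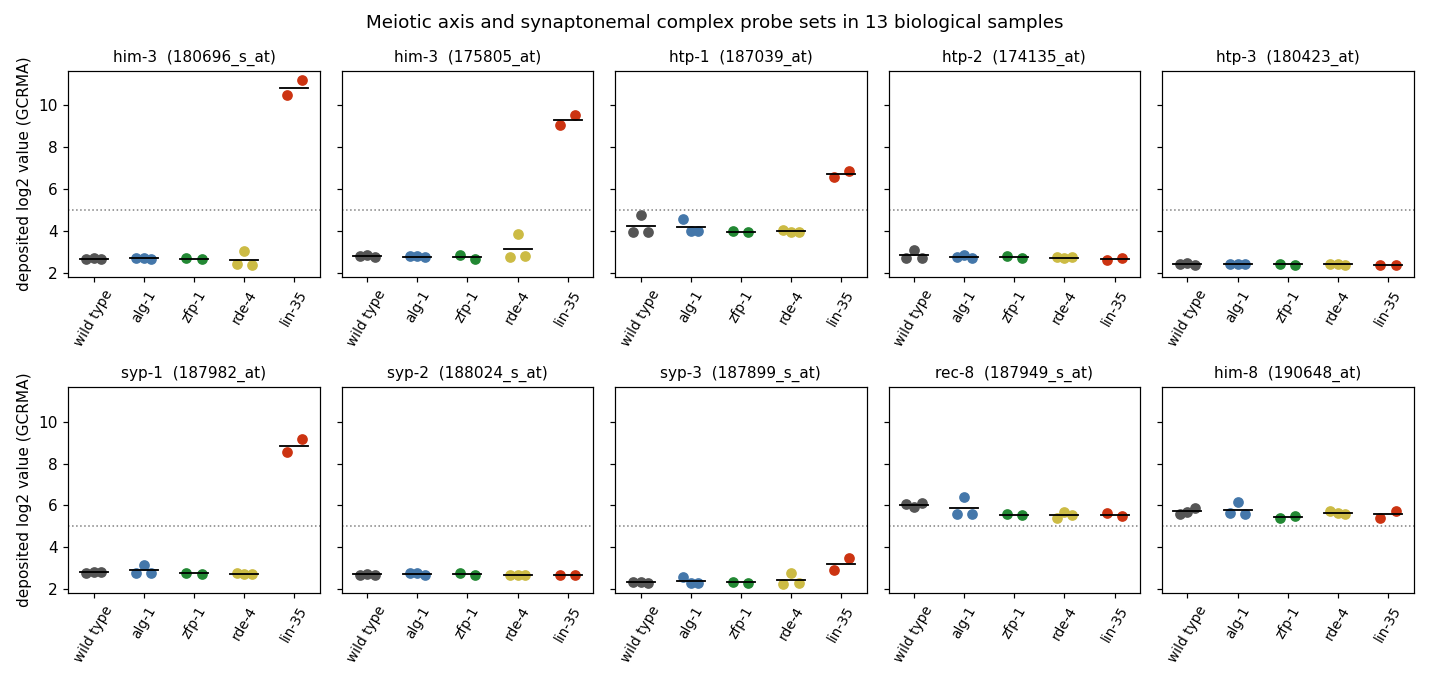
Deposited log2 value (vertical axis) of each of the 10 probe sets of the 9 genes in each of the 13 biological samples, grouped by strain, with a bar at each group mean and a dotted line at 5. In the lin-35 strain him-3, syp-1 and htp-1 lie above the line and apart from the other 11 samples, rec-8 and him-8 lie above it in every strain, and the other 4 genes lie below it throughout.

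The axis protein gene him-3 had the largest difference of the 9. Its main probe set, 180696_s_at, read 10.49 and 11.21 in the lin-35 samples, against 2.66, 2.70 and 2.65 in wild type. It read 2.68, 2.70 and 2.66 in the alg-1 samples, 2.68 and 2.64 in the zfp-1 samples, and 2.40, 3.01 and 2.37 in the rde-4 samples. The lin-35 samples did not overlap with any other, and the lowest of them lay 7.48 above the highest of the remaining 11. The mean was 10.85 ± 0.51 (SD, n = 2) in the lin-35 strain and 2.67 ± 0.03 (SD, n = 3) in wild type. This difference of 8.18 ± 0.25 (SE) on the log2 scale passed the limma test with an adjusted p of 3.7e-10. Taken against the value of 5, which all wild-type samples lie under, him-3 was at least 57.8-fold higher.

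The second him-3 probe set, 175805_at, gave the same pattern. It read 9.09 and 9.56 in the lin-35 samples and 2.78, 2.82 and 2.74 in wild type. The other 3 strains ranged from 2.65 to 2.84, apart from rde-4 replicate 2 at 3.84, which also held the highest value of the other probe set outside the lin-35 strain. In a limma fit of all probe sets, this one was 6.54 ± 0.30 (SE) higher in the lin-35 strain, with an adjusted p of 2.1e-08.

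The gene htp-1 encodes a HORMA-domain protein that acts in homolog pairing and in the release of sister chromatids. It read 6.56 and 6.86 in the lin-35 samples and 3.95, 4.74 and 3.93 in wild type. The alg-1 samples read 4.58, 3.98 and 3.97, the zfp-1 samples 3.97 and 3.92, and the rde-4 samples 4.03, 3.96 and 3.96. The lin-35 samples did not overlap with any other and lay at least 1.82 above them, a smaller gap than for him-3. The mean was 6.71 ± 0.21 (SD, n = 2) in the lin-35 strain and 4.21 ± 0.46 (SD, n = 3) in wild type. The difference of 2.50 ± 0.27 (SE) passed the limma test with an adjusted p of 7.6e-05, and htp-1 was at least 3.27-fold higher.

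The gene htp-2 is a close paralog of htp-1, and its probe set stayed low. It read 2.62 and 2.72 in the lin-35 samples, 2.71, 3.06 and 2.72 in wild type, and 2.69 to 2.82 in the other 3 strains. The lin-35 and wild-type samples overlapped, and the 13 samples spanned 0.44. Whether probes of htp-1 also bind htp-2 transcripts was not tested, since probe sequences were not used here.

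The gene htp-3, whose product is the axis component that recruits the other HORMA-domain proteins, also stayed low. Its probe set read 2.35 and 2.38 in the lin-35 samples, 2.39, 2.44 and 2.39 in wild type, and 2.37 to 2.41 elsewhere. The lin-35 samples lay just below those of wild type, but the whole span of 0.09 was narrower than the median span of 0.94 over 20766 probe sets, and 9.65% of them spanned less. Thus the axis genes were divided, with him-3 and htp-1 up and htp-2 and htp-3 low in the same lin-35 samples. A low value does not show that a gene was off, because a probe set that binds poorly reads low too.

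The cohesin gene rec-8 was at 5 or more in every sample, and no comparison of it passed the test. It read 5.61 and 5.47 in the lin-35 samples and 6.04, 5.94 and 6.09 in wild type. The alg-1 samples read 5.56, 6.41 and 5.59, the zfp-1 samples 5.59 and 5.52, and the rde-4 samples 5.39, 5.68 and 5.54. Both lin-35 samples lay below all wild-type samples. Wild type had the highest mean, 6.02 ± 0.08 (SD, n = 3), and the lin-35 mean was 5.54 ± 0.10 (SD, n = 2). The difference of -0.49 had a 95% confidence interval of -1.02 to 0.05 and did not pass the limma test (adjusted p = 0.30).

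Among the synaptonemal complex genes, syp-1, which encodes a coiled-coil protein of the central region, rose in the lin-35 strain. It read 8.53 and 9.19 there and 2.74, 2.82 and 2.80 in wild type. The alg-1 samples read 2.77, 3.14 and 2.74, the zfp-1 samples 2.76 and 2.71, and the rde-4 samples 2.74, 2.72 and 2.73. No other sample came within 5.39 of the lower lin-35 sample. The mean was 8.86 ± 0.46 (SD, n = 2) against 2.79 ± 0.04 (SD, n = 3) in wild type. The difference of 6.07 ± 0.21 (SE) passed the limma test with an adjusted p of 1.2e-09, and syp-1 was at least 14.5-fold higher.

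The gene syp-2 encodes another central region protein, and its probe set stayed low. It read 2.64 and 2.66 in the lin-35 samples, 2.67, 2.73 and 2.67 in wild type, and 2.64 to 2.75 in the other strains. The lin-35 samples lay just below those of wild type. All 13 samples lay within 0.11 of each other, and 11.8% of probe sets spanned less.

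The gene syp-3 also encodes a central region protein and lay between these patterns. Its probe set read 2.88 and 3.45 in the lin-35 samples and 2.32, 2.33 and 2.29 in wild type. The alg-1 samples read 2.59, 2.30 and 2.29, the zfp-1 samples 2.32 and 2.30, and the rde-4 samples 2.24, 2.78 and 2.29. Both lin-35 samples were the highest of the 13, but the lower one exceeded rde-4 replicate 2 by only 0.10. Every value was below 5, so syp-3 was not tested in the filtered fit. In the limma fit of all 17118 genes without a filter, its difference of 0.86 from wild type had an adjusted p of 0.048, where 2.96% of genes were higher. In that fit the adjusted p was 0.078 against the alg-1 strain, 0.081 against the zfp-1 strain and 0.075 against the rde-4 strain. With syp-3 counted, 4 of the 9 genes had both lin-35 samples above all 11 others, where 4.52% of all genes did.

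The pairing centre gene him-8 was also at 5 or more in every sample. It read 5.41 and 5.72 in the lin-35 samples and 5.58, 5.67 and 5.86 in wild type. The alg-1 samples read 5.61, 6.15 and 5.58, the zfp-1 samples 5.39 and 5.48, and the rde-4 samples 5.72, 5.64 and 5.58. The lin-35 samples overlapped with those of each other strain, while both zfp-1 samples lay below all wild-type, alg-1 and rde-4 samples. No difference of him-8 between strains passed the limma test. The lin-35 difference of -0.14 had a 95% confidence interval of -0.60 to 0.32 and did not pass the limma test (adjusted p = 0.774).

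**Figure D2:**
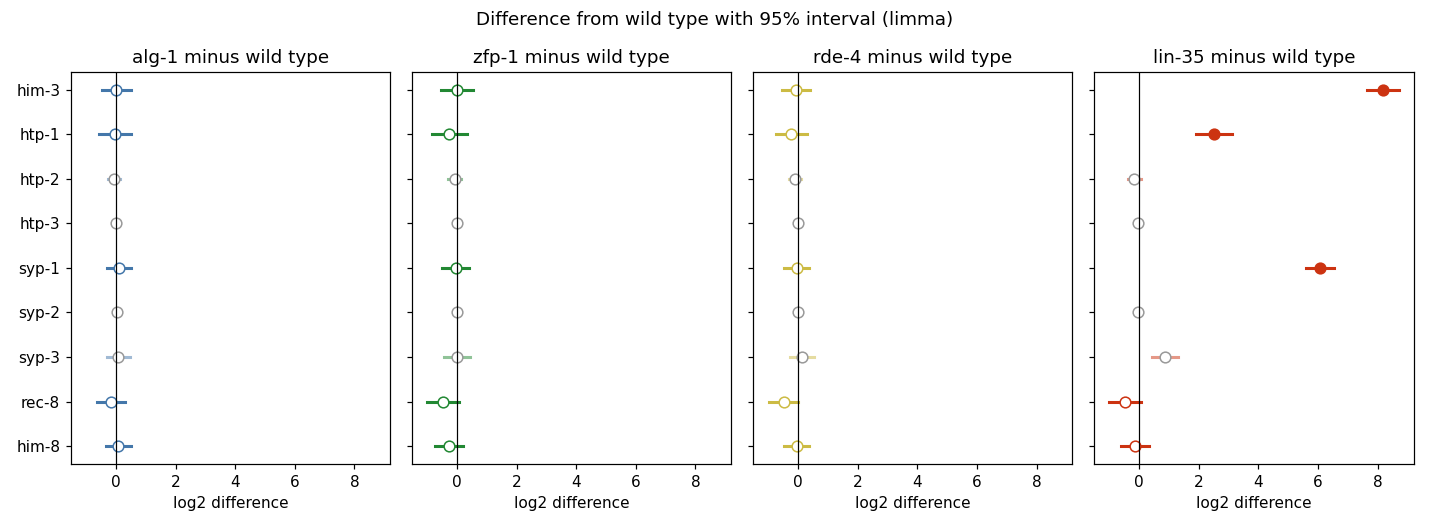
Log2 difference of each mutant strain from wild type (horizontal axis) for the 9 genes, with 95% confidence intervals from limma. Filled points passed the test, hollow coloured points were tested and did not pass, and hollow grey points are genes below the filter with intervals from the fit without it. In the lin-35 strain him-3, syp-1 and htp-1 stand at 8.18, 6.07 and 2.50.

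Among the other 4 strains the 9 genes showed no called difference. Their 6 pairwise comparisons gave 30 tests of the 5 tested genes, of which 0 passed in limma and 1 had an unadjusted p under 0.05. That test was rec-8 in the rde-4 strain against wild type, where the means were 5.53 ± 0.14 (SD, n = 3) and 6.02 ± 0.08 (SD, n = 3) and the limma adjusted p was 0.162. Of all tested genes, 3.13% were called in the alg-1 strain against wild type, 4.2% in the zfp-1 strain and 11.1% in the rde-4 strain. Between these mutants the share was 0.705% for zfp-1 against alg-1, 1.02% for rde-4 against alg-1 and 1.36% for rde-4 against zfp-1.

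Each other mutant was also set directly against the lin-35 strain, which enters all of these comparisons with the same 2 samples. The genes him-3, htp-1 and syp-1 were higher in the lin-35 strain in each of them. As they passed the filter through these 2 samples alone, they had to differ, and their tests here are a description. Against the alg-1 strain, where 5.5% of tested genes were higher, the log2 differences were 8.17, 2.53 and 5.98 in that order, and the largest limma adjusted p was 6.4e-05. Against the zfp-1 strain, where 5.64% were higher, they were 8.19, 2.76 and 6.13, with a largest adjusted p of 7.2e-05 in limma. Against the rde-4 strain, where 7.96% were higher, they were 8.26, 2.73 and 6.13, with a largest adjusted p of 3.0e-05 in limma. The genes rec-8 and him-8 did not pass in any of them.

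Both arrays of lin-35 replicate 2 held the high values. For syp-1 they read 9.16 and 9.22, and for the main him-3 probe set 11.31 and 11.12. The arrays were further apart for htp-1, at 7.33 and 6.39, and for the second him-3 probe set, at 8.50 and 10.62. The median difference between these arrays was 0.22 and the 95th percentile 0.76, over 10668 probe sets at 5 or more in the lin-35 strain, so htp-1 and the second him-3 probe set were among the least repeatable. Even the lower of their arrays lay above all samples of the other strains. For syp-3 the arrays read 3.48 and 3.42, both above the 2.88 of replicate 1.

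**Figure D3:**
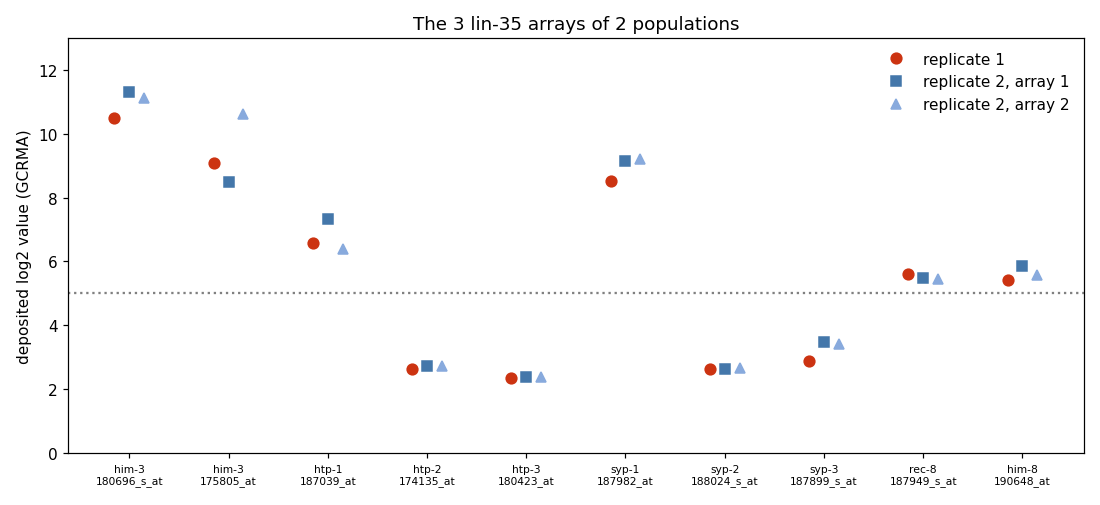
Deposited log2 values (vertical axis) of the 10 probe sets on the 3 arrays of the lin-35 strain, 1 array for replicate 1 and 2 for replicate 2, with a dotted line at 5. The arrays of replicate 2 read 8.50 and 10.62 for the second him-3 probe set and 7.33 and 6.39 for htp-1, and they lie close together for syp-1.

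Across the 13 samples the values of him-3 and syp-1 followed each other with a Pearson r of 0.998, and those of him-3 and htp-1 with an r of 0.966. These correlations rest on the step between the lin-35 samples and the rest, and all genes share the same arrays. Among 8648 other tested genes, 79 had an r over 0.99 with him-3 and 80 with syp-1. The 5 closest to him-3 were pals-33, C08F11.7, T28A8.6, fncm-1 and gpx-4. As an example, T28A8.6 went from 3.19 ± 0.02 (SD, n = 3) in wild type to 8.97 ± 0.13 (SD, n = 2) in the lin-35 strain. Closest to syp-1 were pals-38, mesp-1, gln-5, sdz-6 and inx-21. Of these, inx-21, a germline gap junction gene, went from 2.01 ± 0.02 (SD, n = 3) to 8.70 ± 0.48 (SD, n = 2).

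Next to the 9 genes on their chromosomes lie 18 neighbouring protein-coding genes, of which 15 had a probe set and 7 were tested. In the lin-35 strain 2 of the 7 were higher than in wild type and 0 were lower. Of all tested genes, 5.19% were higher and 1.47% lower. The 2 neighbours that were higher, pgl-1 and mrt-1, passed the filter through their lin-35 samples alone, so they had to differ. Their count and tests are a description. Beside him-3 lies pgl-1, which encodes a constitutive component of the germ granules called P granules. It read 12.08 and 12.09 in the lin-35 samples against 3.12, 3.21 and 3.11 in wild type, and did not exceed 4.34 in the other strains. The limma difference was 8.94 ± 0.40 (SE), with an adjusted p of 1.3e-08, and pgl-1 was at least 136-fold higher. The gene on the other side of him-3, prkl-1, differed by -0.10 (limma adjusted p = 0.848).

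The other neighbour that rose was mrt-1, a telomere maintenance gene beside syp-3. It read 5.30 and 5.36 in the lin-35 samples and 2.78 to 3.03 in all others, and the limma difference from wild type was 2.40 ± 0.16 (SE) with an adjusted p of 4.8e-07. On the far side of syp-3, F39H2.3 differed by 0.76 (limma adjusted p = 0.415). The htp-1 neighbour elo-6, a fatty acid elongase gene, differed by -0.18 (limma adjusted p = 0.734), and the measured neighbour of syp-1, F26D2.3, was low in both strains at 2.95 and 2.84. Beside him-8 lies zim-3, whose product binds pairing centres of autosomes, and it stayed between 2.55 and 2.67 in all 13 samples.

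**Figure D4:**
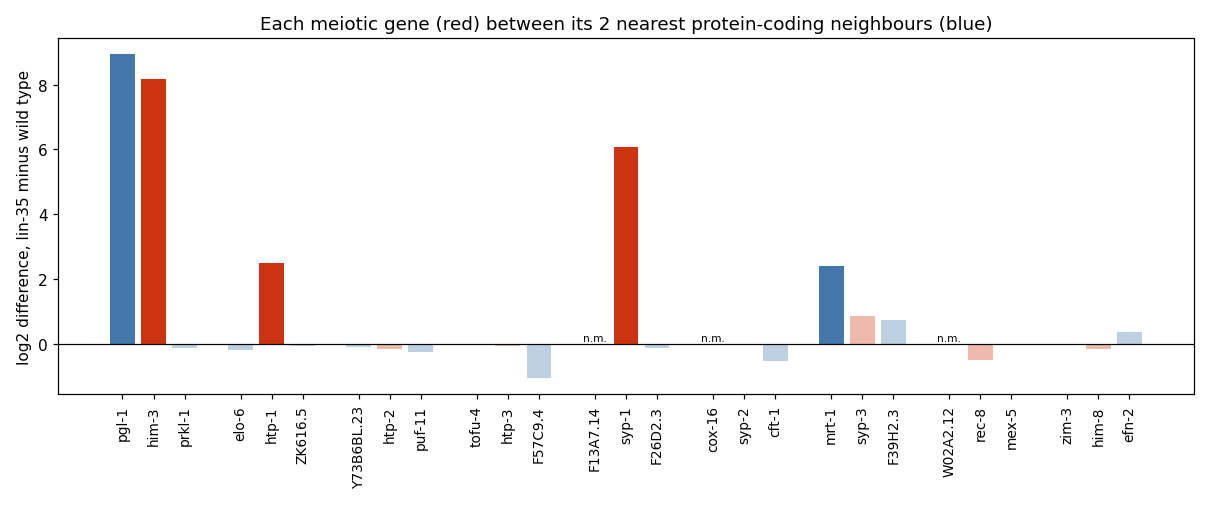
Log2 difference of the lin-35 strain from wild type (vertical axis) for each of the 9 genes (red) and the protein-coding gene on either side of it (blue). Dark bars passed the limma test, pale bars did not pass or were not tested, and n.m. marks genes with no probe set. Beside him-3, pgl-1 is higher by 8.94 and prkl-1 differs by -0.10, and beside syp-3, mrt-1 is higher by 2.40.

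A list of 61 further genes of meiotic chromosomes and recombination was examined for the same strains, of which 55 had a probe set and 29 were tested. In the lin-35 strain 8 of the 29 rose against wild type and 0 fell, where 5.19% of all tested genes were higher and 1.47% lower. The median log2 difference was 0.38 over the 29 and 0.01 over all tested genes. Of the 8, zhp-2 and dsb-2 passed the filter through their lin-35 samples alone, so they had to differ. Their tests, and their part in the counts given here, are a description. Against the alg-1 strain 8 of the 29 were higher and 0 lower (5.5% of all tested genes higher), against the zfp-1 strain 6 and 0 (5.64%), and against the rde-4 strain 7 and 1 (7.96%). Many of the listed genes also serve the DNA repair of dividing cells. In every wild-type sample 26 of the 55 were at 5 or more, where 44.7% of all genes were at 5 or more in all 13 samples. All 13 samples were below 5 for 25 of the 55, near the 48% of all genes with this pattern.

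Of these genes only zhp-2 and dsb-2 shared the pattern of him-3, with low values in every other strain and 5 or more in both lin-35 samples. The crossover gene zhp-2, which encodes a RING finger protein, had a mean of 8.02 ± 0.02 (SD, n = 2) in the lin-35 strain and read 2.57 to 2.71 in the other 11 samples. Its difference from wild type was 5.39 ± 0.15 (SE) with a limma adjusted p of 2.6e-10, at least 8.11-fold. The gene dsb-2, needed for meiotic double-strand breaks, read 5.81 and 7.16 in the lin-35 samples and 3.19 to 3.55 elsewhere. Its difference of 3.03 ± 0.31 (SE) had a limma adjusted p of 3.7e-05. The break genes spo-11 and dsb-1 were low in all 13 samples, at no more than 1.85 and 2.00, and were named after their values were seen.

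In the synaptonemal complex list, skr-2 rose, while syp-4, syp-5 and syp-6 stayed between 2.23 and 2.83. SKR-2 is a Skp1-related protein of ubiquitin ligase complexes that is also a part of the synaptonemal complex. It went from 5.60 ± 0.10 (SD, n = 3) in wild type to 10.40 ± 0.60 (SD, n = 2), and the difference of 4.79 ± 0.35 (SE) had a limma adjusted p of 1.7e-06. Its close paralog skr-1 was at 11.93 and 12.11 and differed by 0.18 (limma adjusted p = 0.673). The genes syp-4, syp-5, syp-6 and skr-1 were named after their values were seen.

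Of 7 tested cohesin genes, scc-1 and wapl-1 rose. The mitotic kleisin gene scc-1 went from 6.36 ± 0.34 (SD, n = 3) to 8.35 ± 0.13 (SD, n = 2), with a limma adjusted p of 0.00028. The cohesin release gene wapl-1 was higher by 1.53 (limma adjusted p = 0.0196), and was also higher than wild type by 1.70 in the zfp-1 strain (limma adjusted p = 0.021) and by 1.62 in the rde-4 strain (limma adjusted p = 0.012). The meiotic kleisin gene coh-3, not tested because only 1 sample reached 5 and named after its values were seen, read 5.42 and 4.51 in the lin-35 samples and 2.47 to 2.55 in the other 11. The meiotic kleisin gene rec-8, read by a different probe set, showed no called difference between strains, as given above.

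Among the repair and surveillance genes, the recombinase gene rad-51 was higher by 2.06 ± 0.29 (SE), with a limma adjusted p of 0.00064. The break processing gene rad-50 was higher by 1.75 ± 0.25 (SE), with a limma adjusted p of 0.00090. The AAA-ATPase gene pch-2, which remodels HORMA-domain proteins, was higher by 1.36 ± 0.34 (SE), with a limma adjusted p of 0.0323. Each of these was at 5 or more in wild type. The gene that was lower than in the rde-4 strain, brc-2, was itself higher in that strain than in wild type by 2.18 (limma adjusted p = 0.00048), and was named after its values were seen. In the direct comparisons with the other 3 mutants, zhp-2, dsb-2, skr-2, scc-1, rad-50 and rad-51 were higher in the lin-35 strain each time.

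None of the 8 pairing genes with a probe set reached 5 in any sample, where 48% of all genes were below 5 in all 13 samples. The 2 with the highest wild-type means were hal-2, at 3.33 ± 0.03 (SD, n = 3), and plk-2, at 3.06 ± 0.27 (SD, n = 3). The relatives of him-8 in this list, zim-1, zim-2 and zim-3, read between 2.39 and 2.84. Of the measured pairing genes only him-8 was at 5 or more. As levels of different probe sets cannot be set against each other, this does not show that him-8 alone was expressed. In the axis list lab-1, a partner of the HORMA-domain proteins, stayed between 2.15 and 2.28.

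**Figure D5:**
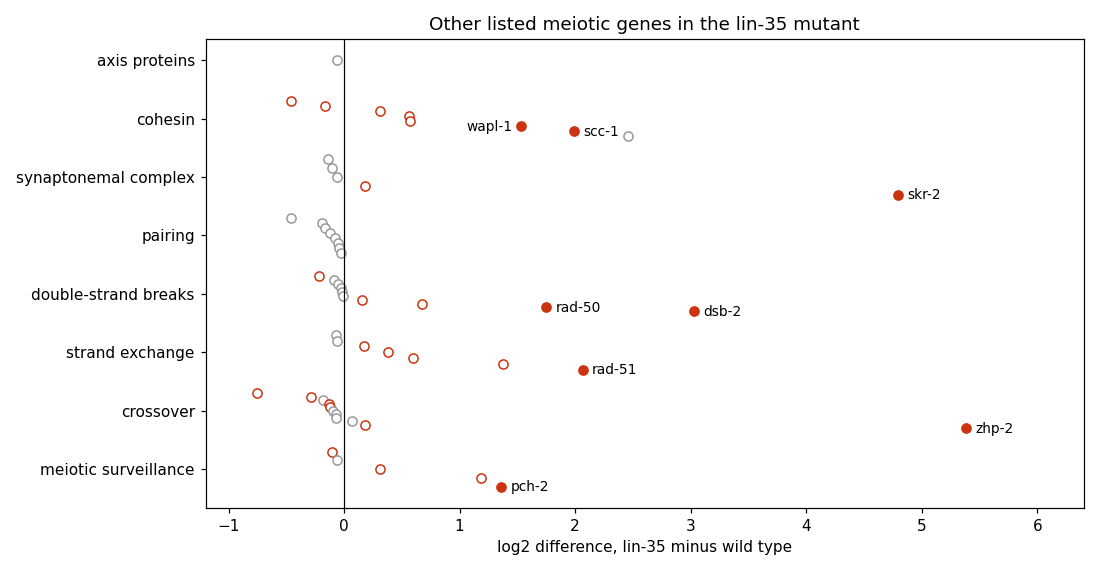
Log2 difference of the lin-35 strain from wild type (horizontal axis) for the 55 other meiotic genes with a probe set, by list. Filled points passed the limma test and carry the gene name, hollow red points were tested and did not pass, and hollow grey points were not tested. The 8 filled points run from pch-2 at 1.36 to zhp-2 at 5.39.

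Markers of other tissues were read on the same arrays, and their part in the differences was not tested. P granule markers moved with the lin-35 strain. Their summed level over 8 genes was 13.31 to 13.80 on the log2 scale there, against 6.17 to 6.81 in wild type and at most 7.65 in the other strains. Of the 8, pgl-1, pgl-3 and glh-1 rose against wild type, where 5.19% of all tested genes were higher and 1.47% lower. Of these, pgl-1 and pgl-3 were below 5 in every other strain. They passed the filter through their lin-35 samples alone, so they had to differ and their calls are a description. The other 5 of the 8 were below 5 in all 13 samples. The summed level of 12 oocyte and eggshell genes was 9.49 to 9.82 in the lin-35 strain and 8.22 to 8.61 in wild type. Among them cpg-2 and spn-4 were higher, and 7 of the 12 were below 5 in all samples. As cpg-2 also passed the filter through its lin-35 samples alone, its call is a description. The 12 germline RNA regulators had overlapping sums, 11.80 to 11.95 against 11.50 to 11.89 in wild type. Of the 6 that were tested, mes-2 and mes-4 rose and 0 fell by limma, but the median log2 difference was -0.20. The other 6 were below 5 in all samples. Sperm genes were below 5 in all samples for 8 of 9.

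Some sums of somatic markers also differed between strains. All 9 intestine, 6 muscle and 6 neuron markers were at 5 or more in every sample. The intestine sum was 16.53 to 16.57 in the lin-35 strain and at most 16.39 in any other sample. Such a sum follows the genes with the highest values: in wild type asp-1 alone read 15.69 to 15.85, and the sum was 16.20 to 16.34. Over the 9 intestine markers the median log2 difference of the lin-35 strain from wild type was 0.04. By limma, 3 intestine markers were higher in the lin-35 strain than in the rde-4 strain, where 7.96% of all tested genes were higher. Against the zfp-1 strain 2 were higher (5.64% of all tested genes), and against the alg-1 strain 1 (5.5%). However, in each of these other mutants 3 of the 9 were lower than in wild type. Of all tested genes, 3.13% (alg-1), 4.2% (zfp-1) and 11.1% (rde-4) were called against wild type in either direction. The sum of 5 pharynx genes was 10.56 to 10.71 in the lin-35 strain and 11.07 to 12.17 in wild type. The sum of 5 yolk genes was 5.37 to 5.46 against 5.56 to 6.09, and of the other strains only rde-4 overlapped, at 5.32 to 5.58. This sum rests on low values: 4 of the 5 genes were below 5 in all 13 samples, and vit-6 read 3.87 to 5.16. It therefore does not show a change in yolk expression. In the lin-35 strain against wild type, limma called 0 of the tested markers of sperm, yolk, intestine, body wall muscle, neuron, pharynx and hypodermis.

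The log2 difference between 3′ and 5′ actin probe sets was 0.81 to 1.79 on the lin-35 arrays and 0.89 to 2.96 on the others, with 2.96 on rde-4 replicate 2. The lin-35 arrays had the most genes at 5 or more, 8341 to 8402 against 8140 to 8306 on the others, and the part of this in the differences was not tested. The lin-35 transcript itself fell by 1.61 ± 0.25 (SE) in the lin-35 strain (limma adjusted p = 0.0015), and unc-13 differed by -0.14 (limma adjusted p = 0.739). In their own strains rde-4 fell by 2.97 (limma adjusted p = 6.1e-06), alg-1 differed by -1.44 (limma adjusted p = 0.219) and zfp-1 by 0.01 (limma adjusted p = 0.99). Whether the probes lie in deleted sequence was not examined, so the last values do not check the labels. Replicates 1 and 3 of the alg-1 strain were closer to each other (SD of the difference 0.26) than the arrays of lin-35 replicate 2 (0.37), and counting them as 1 sample left the calls of the 9 genes as they were in the 4 comparisons with wild type and the 3 of other mutants with the lin-35 strain.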

How the data were processed

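RNA of 13 biological samples was measured on 15 arrays. The deposited log2 values were made by the authors with GCRMA, per the submitters' processing notes. GCRMA adjusts for background with a model of probe GC content, makes the arrays comparable and gives 1 value per probe set. The sources used here do not give its version. Values ran from 1.42 to 17.0, and array medians from 4.48 to 4.86. Precision is limited by the number of biological samples, which was only 2 in the zfp-1 strain and 2 in the lin-35 strain.

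Of 22625 probe sets, 77 controls, 887 with several genes and 895 not listed were set aside. Of the 20766 left, 20701 matched the RefSeq table of WBcel235, used for names, chromosomes and neighbours. Coordinates are left out because the arrays' build is not named. For 2981 genes with several probe sets, the one of highest mean was used. Repeat arrays of a sample were averaged.

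All 5 groups were fitted with limma 3.58.1 in R 4.3.3 (8 residual and 3.49 prior degrees of freedom, median residual SD 0.32). Two-sided p-values were adjusted by Benjamini-Hochberg per contrast, and 0.05 was the threshold. A bound "at least N-fold" takes the higher group's mean against 5. In simulated data, the lin-35 against wild-type contrast recovered 27% of log2 changes of 1 and 94% of changes of 2. It made 5 false calls over 8653 genes, of which 200 were changed. A small difference that was not called is thus not shown to be absent. P-values measure the spread between replicates, which the series describes as separate populations except for the repeated arrays.

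The 9 genes, the lists, the filter and the alternatives were chosen with earlier results of these data known. Of the other meiotic genes, those called in lin-35 against wild type were named, and in lists with none called the 2 with the highest wild-type mean; others are said to be named after their values were seen. The 5 genes most like him-3 and syp-1 were ranked by Pearson r. Promoter and protein sequences were not analysed here.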

Additional observations from a re-analysis of the deposited data

How the results depend on the processing

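The 3 genes higher in the lin-35 strain than in wild type, him-3, htp-1 and syp-1, were called under each alternative run on the full data and with any single sample left out (3 to 3 calls). The fit without a filter called 4, adding syp-3. When the filter and probe sets were chosen anew with 1 lin-35 sample left out, an alternative added after seeing the data, the count was 0 by construction, since only 1 sample at 5 or more remained; the other meiotic genes then gave 4 in place of 8 (rad-50, rad-51, scc-1 and skr-2), and 6 to 9 in the other omissions. Over the remaining alternatives the largest limma adjusted p was 5.1e-05 for him-3, 0.0113 for htp-1 and 7.6e-05 for syp-1. Setting values below 5 to 5 gave their lowest log2 differences, 5.85, 1.71 and 3.86. A replicate block also called 3 (him-3 by 8.14) and 9 other meiotic genes, and the block changed no call of the 9 genes. The numbers were not taken as pairs: 14 of 23 same-number pairs had a correlation of their deviations over 0.1, including all 8 with a lin-35 sample (0.15 to 0.38), but not every pair did.

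Leaving out single samples gave 0 to 1 calls in the rde-4 strain against wild type, the 1 being rec-8 without alg-1 replicate 2. The uncalled him-8 difference ran from -0.30 without lin-35 replicate 2 to 0.014 without replicate 1 (limma adjusted p = 0.989), also 0.014 with the filter chosen anew, and htp-3 and syp-2 changed sign under quantile normalisation (0.02 and 0.05); the cause was not tested. Subtracting array medians shifted the median of all genes by -0.16, and quantile normalisation by -0.13. All genes called in lin-35 against wild type numbered 576, and 295 to 781 under alternatives that kept the 8653 genes, and 203 and 183 with the filter chosen anew. Signal limits htp-2, htp-3, syp-2 and syp-3, for which a low value does not show absence, and the lin-35 strain had only 2 samples.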
